A study of Mus musculus with 7 samples.

Results

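The genes of the 5 NF-kB subunits (Rela, Relb, Rel, Nfkb1 and Nfkb2) and of the kinases that switch NF-kB on (Chuk, Ikbkb, Ikbke and Map3k14, with the scaffold gene Ikbkg) were examined in sorted Paneth cells (PCs), which secrete antimicrobial proteins from the bottom of intestinal crypts. These 10 genes were chosen by name, each symbol matched 1 of the 55414 Ensembl identifiers in the table of read counts, and all 10 were among the 14329 genes that passed the filter on low counts. Bulk RNA-seq compared C57BL/6J mice given TNF (a cytokine of acute inflammation) with mice given phosphate-buffered saline (PBS). PCs were purified from the small intestine 15 h after injection, which gave 3 PBS and 4 TNF libraries, each from its own mouse according to the series description. The strain and the time point were shared by both groups, and no other allele or agent was named. Dose, sex, age and sorting gate are not stated in those labels.

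NF-kB is a dimer of subunits that share a DNA-binding domain. In resting cells, the dimers are held in the cytoplasm by IkB proteins. In the canonical branch, which TNF receptor 1 engages, the kinase IKKb (encoded by Ikbkb), together with IKKa (Chuk) and the scaffold NEMO (Ikbkg), phosphorylates IkB and so marks it for degradation. In the non-canonical branch, the kinase NIK (Map3k14) acts through IKKa, so that the precursor made from Nfkb2 is processed and pairs with RelB. The mRNA levels described here say nothing about phosphorylation, processing or the location of these proteins.

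The libraries held 15511455 to 19193721 counts. Levels are given as CPM, that is, counts per 1000000 counts of a library after TMM scaling, which uses a trimmed mean of the log ratios between libraries. Changes are log2 fold changes of TNF over PBS with their standard error (SE), tested with edgeR, and a gene is called a differentially expressed gene (DEG) when its p, adjusted over all tested genes, is under 0.05. The 8 PC markers together made up 150000 to 234000 CPM after PBS and 159000 to 285000 CPM after TNF. Of these 8, Defa22 and Mmp7 rose (log2 fold changes 1.76 and 0.88), Clps, Kit and Cd24a fell (-2.27, -1.68 and -0.46), and 3 were not called. These 5 calls of 8 are near the 59.6% of all tested genes that were called. In bulk samples, fewer cells of a type and less RNA per cell cannot be told apart.

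After TNF, 8 of the 10 genes rose and 0 fell. All 5 subunit genes rose, as did Chuk, Ikbkb and Ikbke, whereas Ikbkg and Map3k14 were not DEGs. For each of the 8 genes, every TNF library lay above every PBS library. The change differed widely between members, from 1.31-fold for Chuk to 56.9-fold for Rel. Over the whole table, 59.6% of tested genes were DEGs, 29.5% were DEGs that rose and 30.1% were DEGs that fell. A rise of at least 2-fold was found for 7 of the 10 genes, against 14.4% of all tested genes. The median log2 fold change was 1.39 over the 10 genes, 1.90 over the 5 subunit genes and 0.39 over Chuk, Ikbkb, Ikbkg, Ikbke and Map3k14. Over all tested genes the median was 0.0017. Groups that did not overlap were found for 60.7% of all tested genes, and for 29.9% with TNF higher.

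**Figure D1:**
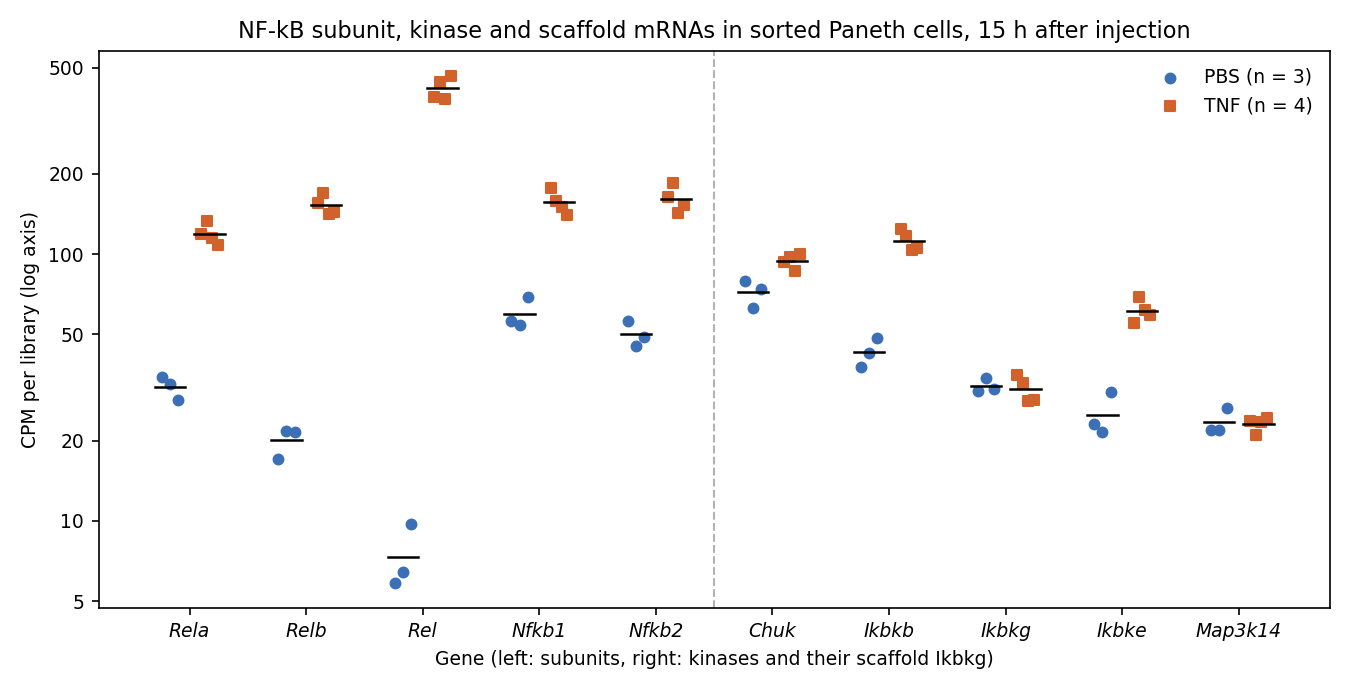
CPM of each gene in each library on a log axis, with circles for the 3 PBS libraries, squares for the 4 TNF libraries and a line at each group mean. Rel spanned the widest distance between the groups (5.87 to 9.70 CPM against 380.4 to 465.5 CPM), while the groups of Ikbkg and Map3k14 overlapped.

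Rel encodes c-Rel, a subunit with a transactivation domain that is best known from lymphocytes. Rel (ENSMUSG00000020275, GRCm39 chromosome 11, 23686847 to 23721264, minus strand) had 5.87, 6.41 and 9.70 CPM in the PBS libraries. In the TNF libraries it had 387.6, 440.8, 380.4 and 465.5 CPM. The lowest TNF library was far above the highest PBS library. It rose 56.9-fold (log2 5.83 ± 0.19, SE, edgeR adjusted p = 8.91e-11), a change larger than that of 99.3% of tested genes. Counts were sufficient on both sides, with 404 reads in all PBS libraries together and 28622 in all TNF libraries together. PBS replicate 3 was the highest of its group, and without it the log2 fold change was 6.08.

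The promoter window of Rel is shown because Rel had the largest change of the set, and because it is 1 of 2 members, among the 7 of 10 with a window in the table, whose window held a match to the kB consensus, the DNA motif bound by NF-kB. The windows run from 250 bases before to 50 bases after each annotated start and come from RefSeq on GRCm38.p6, an older build than that of the gene positions given here. In the sequence, written 5′ to 3′ on the strand of the gene, capitals mark matches on either strand.
Rel, chr11:23770920-23771219, minus strand: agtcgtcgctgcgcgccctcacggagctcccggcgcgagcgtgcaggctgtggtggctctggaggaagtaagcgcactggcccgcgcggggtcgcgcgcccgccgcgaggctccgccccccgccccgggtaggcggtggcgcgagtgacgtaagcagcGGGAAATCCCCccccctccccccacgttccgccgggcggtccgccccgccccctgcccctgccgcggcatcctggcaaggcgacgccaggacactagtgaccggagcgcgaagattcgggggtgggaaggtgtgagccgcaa
The capitals hold overlapping matches of 10 bases that begin at positions -92 and -91 from the start.

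Leukocytes carry high levels of c-Rel, so their markers were set beside this result. Among 13 leukocyte markers, Cd3e and Ms4a1 had 0 counts in every library. The summed level of the 13 markers was 12.6 to 26.9 CPM after PBS and 15 to 17.3 CPM after TNF. Ptprc, which encodes the pan-leukocyte protein CD45, had 11.4, 26.2 and 11.6 CPM after PBS and 7.28, 6.25, 12.7 and 7.72 CPM after TNF. It fell (log2 fold change -0.95, edgeR adjusted p = 0.027), while the neutrophil gene S100a9 rose from 0 counts in each PBS library to 3.21 to 7.85 CPM after TNF. Of the markers of other epithelial cells, 3 of 4 tested enterocyte genes, 4 of 5 goblet cell genes, 4 of 4 tuft cell genes and 4 of 4 stem cell genes fell, against 30.1% of all tested genes. The summed levels of these lists ran from 9.83 to 66.8, 6540 to 12700, 1180 to 1920 and 2410 to 3530 CPM after PBS. After TNF they ran from 1.06 to 3.8, 5780 to 6520, 201 to 518 and 958 to 1590 CPM. All enterocyte genes were highest in PBS replicate 2, where Apoa1 had 22.1 CPM, against 1.11 and 2.39 CPM in PBS replicates 1 and 3. Most of the goblet cell sum came from Muc2, which was not a DEG, while Fcgbp fell from 2892 to 58.9 CPM on average. The part of the leukocyte markers and of these other markers in the member changes was not tested. Stromal and endothelial markers reached at most 0.448 CPM and erythroid markers at most 0.236 CPM in sum. Enteroendocrine markers ran from 9.44 to 64.7 CPM after PBS and from 38.6 to 74.1 CPM after TNF in sum, and of these 4 genes 1 rose, 1 fell and 2 were not called. Chgb fell from 23.6 to 4.34 CPM on average (log2 -2.44, edgeR adjusted p = 0.00437), while Tac1 rose from 1.71 to 41.1 CPM (log2 4.61, edgeR adjusted p = 6.93e-05). The part of these genes was not tested either.

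Relb encodes RelB, the partner of the processed Nfkb2 product in the non-canonical branch. Relb (ENSMUSG00000002983, chromosome 7, 19339017 to 19363425, minus strand) had 17.1, 21.6 and 21.5 CPM in the PBS libraries and 155.4, 169.4, 141.2 and 144.3 CPM in the TNF libraries. The groups lay far apart. Rising 7.59-fold (log2 2.92 ± 0.13, SE, edgeR adjusted p = 5.71e-10), Relb was the second of the 5 subunit genes by size of change.

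Rela encodes p65, the transactivating subunit of the common canonical dimer. For Rela (ENSMUSG00000024927, chromosome 19, 5687493 to 5698161, plus strand), the PBS libraries had 34.7, 32.6 and 28.3 CPM and the TNF libraries 119.1, 133, 114.8 and 108.6 CPM. The groups stood well apart, with a 3.73-fold rise (log2 fold change 1.90 ± 0.12, SE, edgeR adjusted p = 1.32e-08).

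Nfkb1 and Nfkb2 encode large precursors, whose carboxy-terminal parts resemble IkB and whose shorter products bind DNA. Nfkb1 (ENSMUSG00000028163, chromosome 3, 135290264 to 135397742, minus strand) had 55.9, 54.1 and 68.8 CPM after PBS. After TNF it had 176.9, 158.8, 150.4 and 140.1 CPM. Its rise of 1.39 ± 0.12 on the log2 scale (SE, edgeR adjusted p = 3.7e-07) was the smallest of the 5 subunit genes, although no library of one group came near the other group.

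Nfkb2 (ENSMUSG00000025225, chromosome 19, 46292759 to 46303812, plus strand) had 56.4, 45.2 and 48.8 CPM after PBS and 163.6, 185.6, 142.1 and 152.8 CPM after TNF. The groups did not overlap, and the log2 fold change was 1.68 ± 0.12 (SE, edgeR adjusted p = 7.03e-08). Other genes run across Nfkb2 on the opposite strand, and no source used here says whether counting used strand. The exons of Psd share 24.5% of the exon bases of Nfkb2, and Psd had at most 1.48 CPM in any library. The exons of the non-coding 4833438C02Rik share 13.7%, and this gene had 8.15 CPM after PBS and 21.8 CPM after TNF (log2 fold change 1.42). If counting did not use strand, reads of Nfkb2 and of this gene cannot be told apart there.

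The Nfkb2 windows are shown because this gene held the other kB matches among the members. It has 3 annotated windows, each with a match. The windows around the first and the second start follow, with capitals for matches on either strand.
Nfkb2 first start, chr19:46304487-46304786, plus strand: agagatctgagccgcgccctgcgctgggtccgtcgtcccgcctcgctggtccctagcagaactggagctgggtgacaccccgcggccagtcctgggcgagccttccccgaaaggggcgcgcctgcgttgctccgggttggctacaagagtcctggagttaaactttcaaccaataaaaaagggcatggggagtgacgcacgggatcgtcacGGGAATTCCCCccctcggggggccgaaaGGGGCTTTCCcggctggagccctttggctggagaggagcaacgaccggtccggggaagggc
Nfkb2 second start, chr19:46305445-46305744, plus strand: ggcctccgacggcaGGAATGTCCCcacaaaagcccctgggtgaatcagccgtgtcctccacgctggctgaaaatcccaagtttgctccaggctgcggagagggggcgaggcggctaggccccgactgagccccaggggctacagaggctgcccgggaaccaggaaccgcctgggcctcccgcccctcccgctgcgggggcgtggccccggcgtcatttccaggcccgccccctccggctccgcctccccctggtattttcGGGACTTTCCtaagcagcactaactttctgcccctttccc
In the first window, matches begin at positions -39, -38 and -11 from the start. In the second, they begin at -236 and 11, and the latter lies in the overlap with the window of the remaining start. The table held windows of 7 of the 10 members (not Relb, Nfkb1 and Ikbkb), and 4 of their 12 windows matched the kB consensus, against 4.51% of 32851 windows in the table. By gene, 2 of these 7 members held a match, against 5.14% of 27025 genes. Of the 4 windows, 3 belong to Nfkb2, and 2 of those share the same matching bases. A narrower form (3 G, 2 free bases, 3 T and 2 C), searched on both strands like the consensus and overlapping it, was in the same number of member windows and in 1.63% of all windows. The windows of Rela, Chuk, Ikbke, Ikbkg and Map3k14 held no match. These are matches of letters and not measured binding sites.

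Ikbkb encodes IKKb, the main kinase of the canonical branch. Ikbkb (ENSMUSG00000031537, chromosome 8, 23148709 to 23196607, minus strand) had 37.7, 42.7 and 48.7 CPM after PBS. It had 123.9, 117.2, 103.3 and 105.1 CPM after TNF. The TNF libraries were all higher, 2.61-fold on average (log2 1.38 ± 0.12, SE, edgeR adjusted p = 2.99e-07).

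Ikbke encodes IKKe, a kinase related to TBK1 that acts in interferon induction as well as in NF-kB signalling. For Ikbke (ENSMUSG00000042349, chromosome 1, 131182080 to 131207346, minus strand), 23.1, 21.5 and 30.4 CPM were found after PBS and 55.3, 69, 61.7 and 59.2 CPM after TNF. The rise was 2.45-fold, without overlap between the groups (log2 fold change 1.29 ± 0.14, SE, edgeR adjusted p = 2.4e-06).

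Chuk encodes IKKa, which serves both branches. Chuk (ENSMUSG00000025199, chromosome 19, 44061769 to 44095935, minus strand) had 79.7, 62.9 and 74 CPM after PBS and 93.9, 97.8, 86.9 and 100.1 CPM after TNF. The groups were close but did not overlap. The rise of 1.31-fold (log2 fold change 0.39 ± 0.11, SE, edgeR adjusted p = 0.00645) was the smallest among the DEGs of the set. It depended on the scaling: with scaling by total counts alone, under which the median over all tested genes was -0.16, the log2 fold change of Chuk was 0.23 and it was not a DEG (edgeR adjusted p = 0.177, range over its 14 alternatives 0.0048 to 0.177).

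The scaffold and the non-canonical kinase had overlapping groups. Ikbkg (ENSMUSG00000004221, chromosome X, 73436216 to 73500393, plus strand) had 30.7, 34.3 and 31.2 CPM after PBS and 35.4, 32.8, 28.1 and 28.3 CPM after TNF. The TNF libraries were both above and below those of PBS, and the log2 fold change was -0.04 with a 95% interval of -0.30 to 0.22 (edgeR adjusted p = 0.776). Map3k14 (ENSMUSG00000020941, chromosome 11, 103110577 to 103158298, minus strand) had 22, 21.9 and 26.6 CPM after PBS. After TNF it had 23.6, 20.9, 23.5 and 24.4 CPM. Its log2 fold change was -0.02 with a 95% interval of -0.30 to 0.25 (edgeR adjusted p = 0.879). For both genes these intervals leave room for small changes in either direction, but not for a rise of 2-fold.

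**Figure D2:**
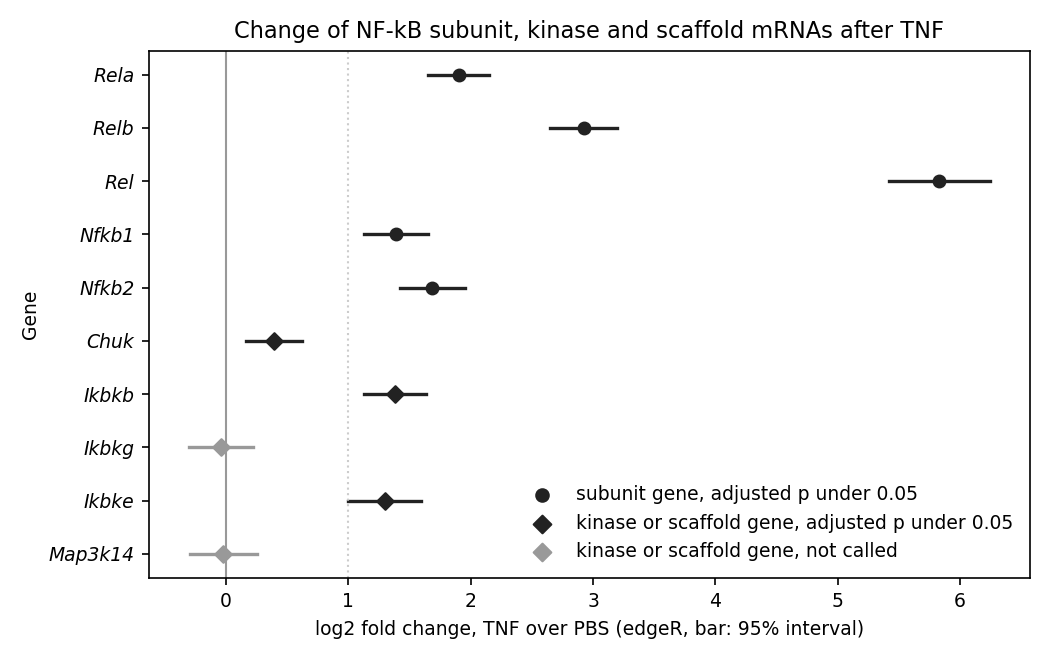
Log2 fold change of TNF over PBS with its 95% interval from edgeR for each gene, with circles for subunits and diamonds for kinases and the scaffold, and grey for genes that were not DEGs. Rel lies at 5.83 and Relb at 2.92, and the intervals of Ikbkg and Map3k14 span 0.

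Whether members changed unequally was tested with ratios inside each library, which do not depend on scaling. The counts were divided by the merged exon length of each gene. Another length shifts a ratio equally in every library, so differences between the groups do not depend on it, while the level and sign of a ratio do. The two-sided exact permutation test went over the 35 ways to assign 7 libraries to 3 and 4, for which 0.0286 is the smallest possible p, and p was adjusted over the 6 ratios. For a ratio at this smallest p, the adjusted p depends on how many of the 6 ratios reach it. Rel and Relb were both set against Rela, and Chuk, Ikbkg and Ikbke against Ikbkb, so the ratios are not independent.

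Rel gained most on Rela. The log2 ratio of Rel to Rela was -3.81, -3.59 and -2.79 in the PBS libraries and 0.46, 0.48, 0.48 and 0.86 in the TNF libraries, so that Rel was below Rela in each PBS library and above it in each TNF library. The ratio was 15.6-fold higher after TNF (exact permutation p = 0.0286, adjusted p = 0.0429). The ratio of Relb to Rela was 2.04-fold higher, with -1.66, -1.23 and -1.03 after PBS and -0.25, -0.29, -0.34 and -0.22 after TNF on the log2 scale (exact permutation p = 0.0286, adjusted p = 0.0429).

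The precursor genes kept closer to each other. The log2 ratio of Nfkb2 to Nfkb1 was 0.71, 0.44 and 0.20 after PBS and 0.59, 0.93, 0.62 and 0.83 after TNF, with overlapping groups (exact permutation p = 0.143, adjusted p = 0.172). The difference in means was 0.29 on the log2 scale.

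Ikbkb rose relative to its partners in the IKK complex. The log2 ratio of Chuk to Ikbkb was 3.10, 2.58 and 2.62 after PBS and 1.62, 1.76, 1.77 and 1.95 after TNF, a fall of the ratio by 0.99 on the log2 scale (exact permutation p = 0.0286, adjusted p = 0.0429). The log2 ratio of Ikbkg to Ikbkb was 0.54, 0.52 and 0.19 after PBS and between -1.06 and -0.98 after TNF. It fell by 1.44 on the log2 scale (exact permutation p = 0.0286, adjusted p = 0.0429). With canonical transcript lengths, mean levels after PBS were 9.63 CPM per kb for Ikbkg, 7.17 for Ikbke and 12 for Ikbkb, so Ikbkb was then above both. For Ikbke and Ikbkb, which both rose, the ratio overlapped between the groups, with 0.51, 0.23 and 0.54 after PBS and 0.061, 0.46, 0.48 and 0.40 after TNF on the log2 scale (exact permutation p = 0.6, adjusted p = 0.6).

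The make-up of the subunit mRNAs shifted accordingly. As a share of the summed counts per kb of the 5 subunit genes, Rel was 2.89%, 3.31% and 4.87% in the PBS libraries and 33%, 34.1%, 34.6% and 39.5% in the TNF libraries. The share of Rela fell from 38% ± 3.74 (SD, n = 3) to 23.8% ± 1.31 (SD, n = 4), Nfkb1 from 18.1% ± 2.39 to 7.99% ± 0.87, and Nfkb2 from 24.7% ± 2.25 to 13.3% ± 0.695. Relb held a larger share after TNF, 19.6% ± 0.664 against 15.5% ± 2.31. The groups did not overlap for any of the 5 shares (exact permutation p = 0.0286 for each, which is also the adjusted p over 5 shares). The shares add up to 100% and are not independent, so Rela, Nfkb1 and Nfkb2 held smaller shares although their CPM rose. With canonical transcript lengths, Rel went from 2.43% to 27% and Rela from 30.4% to 21.9%, while Nfkb1, from 32.7% to 16.7%, and not Rela had the largest mean share after PBS. With these lengths, Relb went from 15.3% to 22.5% and Nfkb2 from 19.2% to 11.9%. The summed level of the 5 genes was 26.2, 25 and 25.7 CPM per kb after PBS and 151, 167, 142 and 152 CPM per kb after TNF, which is 5.97 times as high on average.

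Among the 4 kinase genes, the shift was smaller. Chuk went from 61.2% ± 3.79 (SD, n = 3) of their summed counts per kb to 53.1% ± 1.48 (SD, n = 4). Map3k14 went from 17.6% ± 1.43 to 11.5% ± 1.02. Ikbkb rose from 9.04% ± 1.24 to 15.6% ± 1.25, and Ikbke from 12.2% ± 1.48 to 19.8% ± 1.72. None of these 4 shares overlapped between the groups (exact permutation p = 0.0286 for each, unchanged by adjustment over 4 shares). The sizes of these shares and their order depend on the gene length. With canonical transcript lengths, a choice added after seeing the data, Chuk went from 45.5% to 33.2% and Ikbkb from 26.5% to 38.5%, so that Ikbkb and not Chuk held the largest mean share after TNF. With these lengths, Ikbke went from 15.8% to 21.7% and Map3k14 from 12.2% to 6.7%. The summed level of the 4 genes was 1.51 times as high after TNF, with 17.5 to 21.2 CPM per kb after PBS and 28.1 to 30.8 CPM per kb after TNF.

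**Figure D3:**
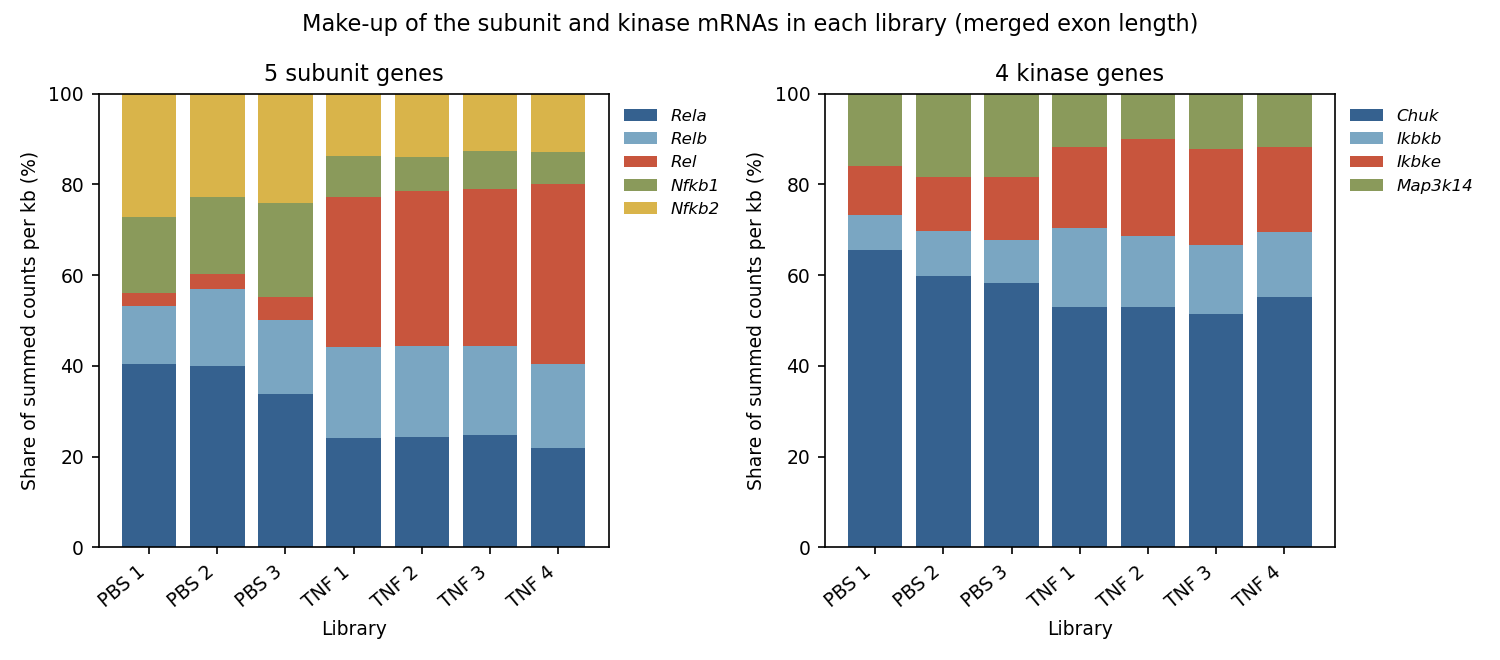
Share of each gene (%) in the summed counts per kb of merged exons, with 1 stacked bar per library, for the 5 subunit genes on the left and the 4 kinase genes on the right. The Rel segment grew from 2.89% to 4.87% in the PBS libraries to 33% to 39.5% in the TNF libraries.

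Per kb of merged exons, Chuk had the highest mean level of the 10 genes after PBS, with 12 ± 1.42 CPM per kb (SD, n = 3). Rela followed with 9.73 ± 0.99, and the ranges of these 2 genes overlapped. Then came Nfkb2 (6.34), Nfkb1 (4.64), Relb (3.95), Map3k14 (3.46), Ikbke (2.4), Ikbkg (2.35), Ikbkb (1.77) and Rel with 0.945 ± 0.267 CPM per kb. Of these neighbours, Nfkb1 and Relb, Relb and Map3k14, and Ikbke and Ikbkg overlapped in their ranges. After TNF, Rel was the highest with 53.9 ± 5.32 CPM per kb (SD, n = 4), before Rela (36.3), Relb (30), Nfkb2 (20.4), Chuk (15.8), Nfkb1 (12.2), Ikbke (5.89), Ikbkb (4.62), Map3k14 (3.4) and Ikbkg (2.28). Here only Rela and Relb overlapped. Much of this order depends on the length used. After TNF, with canonical lengths, Map3k14 (5.43) and not Ikbkg (9.35) was the lowest, and Relb (45) came before Rela (43.8). The merged exons of Ikbkb measure 24325 bases and its canonical transcript 3591 bases, and with canonical lengths Ikbkb was the third after PBS. Rel as the lowest after PBS and the highest after TNF, and Chuk as the highest after PBS, held for the mean per kb of merged exons, of the longest transcript and of the canonical transcript. With either transcript length, however, the ranges of Rel and Relb overlapped after TNF.

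The spread between replicates was small for most members. The coefficient of variation was 6.05% to 28.3% after PBS and 6.12% to 11.5% after TNF, and the highest value was that of Rel after PBS.

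To set the members in their pathway, 29 other genes were read from the same fit, and 22 rose and 1 fell (median log2 fold change 0.84). Among all tested genes, 29.5% rose and 30.1% fell. Of the 23 calls, 19 held under each of 14 other scalings, filters and tests or without a single library, while those of Rnf31, Tab2, Traf3 and Nfkbiz were lost under 1, 11, 9 and 8 of them. Of 14 genes that link TNF receptor 1 to the IKK complex, 8 rose and 1 fell, with a median of 0.50, and these 9 calls of 14 are near the 59.6% over all tested genes. Birc3, which encodes the ubiquitin ligase cIAP2, had 21.4 to 24.4 CPM after PBS and 168.5 to 195.6 CPM after TNF, and rose by 2.99 ± 0.11 on the log2 scale (SE, edgeR adjusted p = 2.33e-10). The receptor gene Tnfrsf1a rose less than 2-fold. Tab1, which encodes a partner of the upstream kinase TAK1, had 33.3 to 37.9 CPM after PBS and 11.7 to 17.7 CPM after TNF. It fell by 1.35 on the log2 scale (edgeR adjusted p = 4.18e-06), while Map3k7, the gene of TAK1 itself, had a log2 fold change of 0.58 (adjusted p = 0.000243), a rise.

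Of the 5 genes that lead to NIK, Ltbr, Tnfrsf12a, Tnfrsf11a and Cd40 rose under each of these 14 alternatives. Traf3 rose in the fit reported here (median log2 fold change of the 5 genes 2.94), whereas Map3k14 itself was not a DEG. Of all tested genes, 29.5% rose. Cd40 had 0, 0 and 1 counts in the PBS libraries and 5.42 to 9.03 CPM after TNF. It passed the filter on low counts only through the TNF libraries, so the size of its change is uncertain. Tnfrsf12a, the receptor gene of the cytokine TWEAK, went from 3.02 to 3.52 CPM after PBS to 29 to 33.2 CPM after TNF (log2 fold change 3.25 ± 0.15, SE, edgeR adjusted p = 1.08e-09). Tnfrsf11a, which encodes the receptor RANK, rose by 2.94 ± 0.13 on the log2 scale (SE, edgeR adjusted p = 7.74e-10), from 47 to 360.4 CPM on average. Traf3, whose product holds NIK levels low in resting cells, rose by 0.28 on the log2 scale, close to the threshold (edgeR adjusted p = 0.0435, up to 0.598 over its alternatives).

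Of 4 partners of the IKK-related kinases, 3 rose (median 0.86), against 29.5% of all tested genes. These 3 calls of 4 are near the 59.6% of all tested genes that were called. Tbk1, the closest relative of Ikbke, had 33.5 to 38.9 CPM after PBS and 92.5 to 112.2 CPM after TNF (log2 fold change 1.54 ± 0.11, SE, edgeR adjusted p = 5.79e-08), and the adaptor gene Tank rose by a log2 fold change of 0.84 ± 0.12 (edgeR adjusted p = 2.54e-05).

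The 6 genes of IkB and IkB-like proteins rose (median 2.06), 5 of them under each of these 14 alternatives, against 29.5% of all tested genes that rose. The log2 fold changes were 3.78 for Nfkbia and 2.08 for Nfkbib, which encode the inhibitors IkBa and IkBb (edgeR adjusted p at most 8.4e-09). Nfkbiz was the only one of the 6 with overlapping groups (log2 fold change 0.48, edgeR adjusted p = 0.0474, up to 0.163 over its alternatives).

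**Figure D4:**
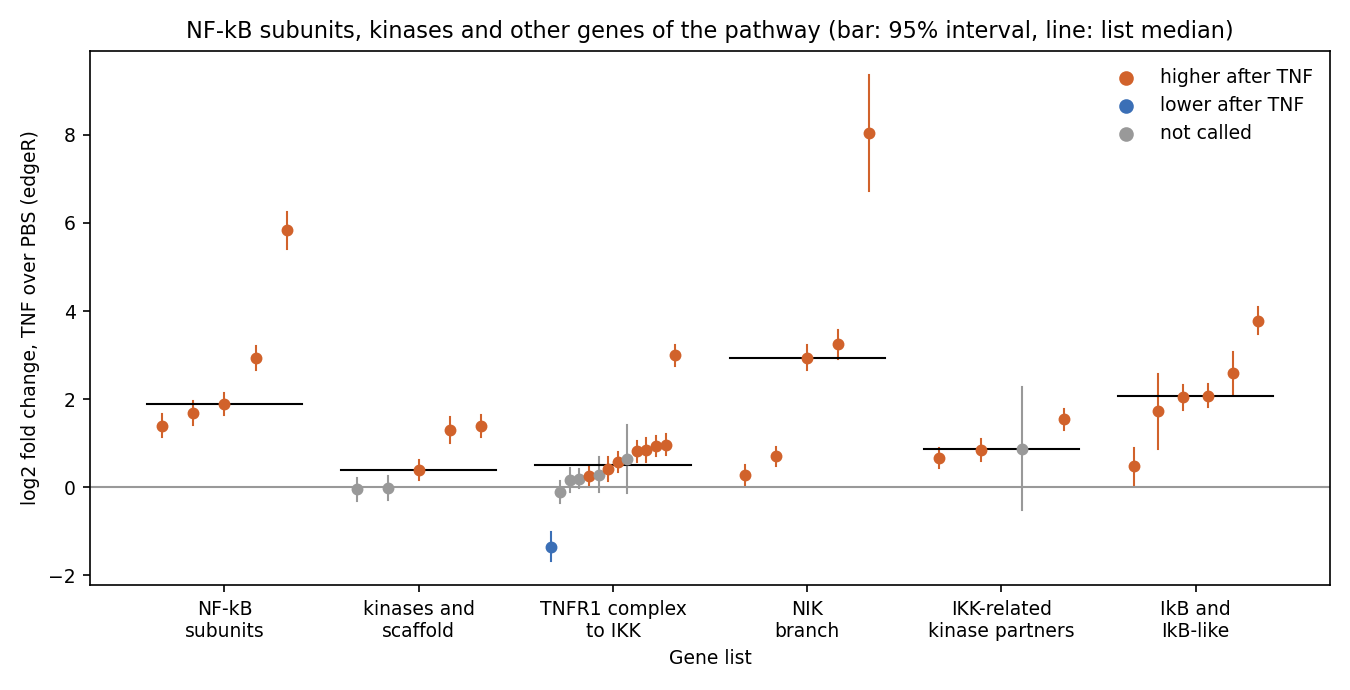
Log2 fold change of TNF over PBS with its 95% interval for each gene, by list, with a line at the median of each list, and colours for genes that rose, fell or were not DEGs. Among the pathway genes outside the set, 22 of 29 rose, and the highest point of the subunit list is Rel at 5.83.

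The profile most like that of Rel over the 7 libraries was sought among 8424 other protein-coding genes whose mean reached 10 CPM and which had counts in every library, by the Euclidean distance of log2 CPM centred on the mean of each gene. The closest was Tnf, the gene of the injected cytokine itself, at a distance of 0.415. It had 1.48 CPM after PBS and 93.1 CPM after TNF (log2 fold change 5.97 ± 0.21, SE). P2ry2, Lbp, Mapk11 and Il4i1 followed, with distances of 0.754 to 0.975. Their means were 0.459 to 0.77 CPM after PBS and 20.8 to 31.5 CPM after TNF. Like Tnf, they reached a mean of 10 CPM only through the TNF libraries. The distance mostly reflects the size of the difference between the groups. The nearest other member was Relb, at a distance of 3.88 and rank 124.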

How the data were processed

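Bulk RNA-seq of sorted PCs was available for 3 PBS and 4 TNF libraries (single-end reads, Element AVITI). The authors deposited raw counts per Ensembl gene, 1 column per library. Per the labels, processing involved FastQC, Trimmomatic 0.39, STAR 2.7.10a and DESeq2 and the builds mm10 and mm39. Annotation, counting program and strand setting were not given in the sources used here. No batch is named. Symbols, positions and exon lengths were taken by identifier from GENCODE M39 on GRCm39 (98.8% of identifiers matched), promoters from RefSeq on GRCm38.p6.

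The quasi-likelihood test of edgeR 4.0.16 in R 4.3.3 (robust, two-sided) was run on the counts after filterByExpr and TMM scaling, over all 7 libraries without covariates. p was adjusted by Benjamini-Hochberg over 14329 genes. SE was the fitted change divided by the root of its F statistic, and 95% intervals from the t distribution of the fit. The procedure was tested on simulated data. Shares of 75-base sequence windows identical to another gene on the same strand were at most 0.88% for any member. Every pair of libraries of one group differed by more than sampling noise. The p-values measure the spread between these mice.

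The members and lists were chosen with earlier results of these data known. Named pathway genes were the 2 largest rises and the 2 largest falls per list among DEGs whose mean reached 10 CPM, with the 5 genes most like the member that rose most, and others named were chosen after their values were seen. Alternatives were the size factors of DESeq2 1.42.0, total counts only, scaling without alpha-defensins and Lyz1, no filter, at least 1 CPM in 3 libraries, the DESeq2 Wald test, a replicate block, a 2-fold minimum, other gene lengths (canonical transcripts were added after seeing the data), 0.5 added to counts, and leaving out each library.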

Additional observations from a re-analysis of the deposited data

Results flagged for a closer look

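Within the TNF group, 34 values (the named genes, ratios and shares) were looked at for a library that stood apart, using Dixon's ratio (the gap to the nearest library over the whole range), and 2 passed the 95% limit for 4 values. Chance gives about 1 in 20. In TNF replicate 4, the log2 ratio of Rel to Rela was 0.855, against 0.458 to 0.483 in the other TNF libraries (Dixon ratio 0.935), and all 4 values were above those of the PBS libraries. Tank had 91.2 CPM in TNF replicate 4, against 74.2 to 75.9 CPM in the other TNF libraries (Dixon ratio 0.9). The PBS group of 3 libraries was not examined in this way.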

How the results depend on the processing

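Of the 10 members, 8 rose and 0 fell under every alternative except scaling by total counts only (7 without Chuk) and the 2-fold minimum (7, also without Chuk). The log2 fold change of Rel ran from 5.63 to 6.08 and that of Relb from 2.75 to 2.98 over their alternatives. For genes that were not DEGs, leaving out 1 library gave log2 fold changes of -0.11 to 0.010 for Ikbkg, positive without PBS replicate 2, and of -0.070 to 0.068 for Map3k14, positive without PBS replicate 3 or without TNF replicate 2 (0.024). The 2-fold minimum left 2065 genes of all tested higher and 2465 lower, and 10 pathway genes higher. Scaling by total counts only gave 3142 higher and 4614 lower, against 4229 and 4314.

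For ratios and shares, leaving out 1 library leaves at best an exact permutation p of 0.0667 or 0.1, so no call could stand, and only the size is informative. Differences in log2 ratio ran from 0.85 to 1.17 for Relb to Rela, from 3.76 to 4.27 for Rel to Rela, from -1.09 to -0.83 for Chuk to Ikbkb and from -1.55 to -1.38 for Ikbkg to Ikbkb. For Nfkb2 to Nfkb1 they ran from 0.16 to 0.42, and for Ikbke to Ikbkb from -0.18 to 0.015, turning sign without TNF replicate 1. Differences in share, in percentage points, ran from -16.4 to -13 for Rela, 2.85 to 4.97 for Relb, 30.2 to 32.4 for Rel, -10.9 to -8.75 for Nfkb1 and -12.3 to -10.2 for Nfkb2. They ran from -9.53 to -5.93 for Chuk, 5.83 to 7.02 for Ikbkb, 7.06 to 8.5 for Ikbke and -6.96 to -5.64 for Map3k14. No share changed direction or call with another gene length, but their sizes and order did change.

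The replicate numbers in the labels showed no sign of pairing the libraries, although correlations over so few libraries cannot settle whether they were paired. Deviations from the group means correlated at -0.40, -0.047 and -0.23 between same-numbered libraries, and no library correlated best with its own number. A replicate block gave 3553 higher and 3578 lower genes and 8 members higher. For the ratios, the block of 3 pairs cannot give p under 0.25, and the mean paired differences were 1.01 for Relb to Rela, 3.87 for Rel to Rela, -1.05 for Chuk to Ikbkb and -1.42 for Ikbkg to Ikbkb.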

Other observations

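Genes that share exon bases with Ikbkg on the opposite strand moved, although Ikbkg was not a DEG. G6pdx, which encodes glucose-6-phosphate dehydrogenase and shares 3.85% of the exon bases of Ikbkg, had 26.4 to 34.1 CPM after PBS and 43.4 to 65.6 CPM after TNF (log2 fold change 0.84, edgeR adjusted p = 0.000201). Fam3a, which shares 1.49%, had 26.9 to 33.1 CPM after PBS and 12.4 to 21 CPM after TNF (log2 fold change -0.74, edgeR adjusted p = 0.00158). These genes were chosen after their values were seen.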
